A study of Mus musculus with 9 samples.

Results

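The genes described here are the zinc finger, chromatin, Mediator and splicing factor genes among the genes whose RNA levels were deposited for whole hemibrains of young, aged and aged microglia-repopulated mice. They were picked by the first letters of their symbols alone (Zfp, Zbtb, Zc3h and Zmym for zinc finger proteins, Kdm, Kmt, Mll, Chd, Hdac, Smarc except *Smarcd3*, Brd, H2af and Hist for chromatin proteins, Med for Mediator subunits, and Srsf, Sf3, Snrn, Snrp, Hnrn, Clk, Ddx and Rbm for splicing and other RNA-binding proteins), not by their values. The rule found 37 of the 689 genes in the table: 7 zinc finger genes, 8 chromatin genes, 4 Mediator genes and 18 splicing and RNA-binding genes. The prefixes Zbtb, Zmym, Kmt and Brd found 0 genes, and Mll found only *Mllt6*, a fusion partner of the methyltransferase MLL and not a methyltransferase itself. The table itself was chosen by measured values, since it holds only genes that a model by the authors had called on libraries of this study, and it says nothing about family members that it lacks.

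The 9 libraries were made from total RNA of 1 frozen hemibrain per mouse, from male C57BL/6J mice in 3 groups of 3. Young control mice (Con, libraries P07, P08 and P09) were 5 months old by the labels, came from JAX and ate control diet for 6 weeks. Aged control mice (Aged Con, P10, P11 and P12) were 24 months old, came from NIA and ate the same diet for the same time. Aged microglia-repopulated mice (Aged Repop, P01, P02 and P03) were 24 months old, came from NIA, and received PLX5622 for 2 weeks followed by control diet for 4 weeks. PLX5622 inhibits the colony-stimulating factor 1 receptor (CSF1R), on which microglia depend for survival, and new microglia fill the brain once it is withdrawn. Age goes with supplier here, so the 2 cannot be told apart. The homogenate mixes all brain regions and cell types, so fewer cells of a type and less RNA per cell cannot be told apart either.

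Splicing removes introns from pre-mRNA in the spliceosome, a machine built from small nuclear ribonucleoproteins and helped or hindered by SR proteins (the *Srsf* genes) and heterogeneous nuclear ribonucleoproteins (the *Hnrn* genes). Chromatin enzymes place, remove or slide the histones and their marks that decide which DNA is open, and the Mediator complex carries signals from DNA-bound transcription factors to RNA polymerase II. Brain tissue is known for unusually rich alternative splicing, and neurons use these proteins throughout life.

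Levels are RPKM, that is, read numbers scaled by transcript length and by library size, and comparisons were fitted with limma on log2(RPKM + 1) over all 689 genes, with Benjamini-Hochberg adjustment over the table. A gene is called where its adjusted p is under 0.05. The members were moderately expressed, with mean levels over the 9 libraries from 10.2 RPKM for *Snrnp40*, a protein of the U5 small nuclear ribonucleoprotein, to 138.4 RPKM for *Hnrnpa2b1*, an abundant nuclear RNA-binding protein. Their median was 28.1 RPKM, against 19.7 RPKM over the table. The authors kept only genes above an RPKM cut before their test, so the lower end of the members' range was set by that filter. Replicates lay close together: the coefficient of variation over the 3 libraries had a median of 2.65% in Con, 3.32% in Aged Con and 2.52% in Aged Repop. It was widest for *Zfp692* in Con (10.3%), for the histone gene *Hist3h2a* in Aged Con (15.8%) and for the kinase gene *Clk1* in Aged Repop (9.89%). The authors' test favours genes with a small spread within groups, so such closeness was in part set by their choice of genes. Of 36 pairs of libraries, 0 held identical values.

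Most members were slightly higher in the aged control brain than in the young one. Of the 37 members, 24 rose with age, 1 fell (*Chd6*) and 12 did not pass the test. Of all genes tested, 46.3% rose and 16.5% fell with age. The median log2 difference of Aged Con from Con was 0.12 over the members and 0.10 over the table. The differences were small: among called members they ran from -0.10 to 0.33 on the log2 scale, with a median standard error of 0.040 over the members. By role, 4 of 7 zinc finger genes, 3 of 8 chromatin genes, 4 of 4 Mediator genes and 13 of 18 splicing and RNA-binding genes rose, with median log2 differences of 0.14, 0.06, 0.16 and 0.12. For 26 members all 3 Aged Con libraries lay above all 3 Con libraries, and for 2 members (*Chd6* and *Zc3h13*) all lay below, where the table's shares were 50.7% and 19.4%. Leaving out 1 young library, P09 or P07, left 11 or 15 members called, and leaving out the aged control P11 left 13. The table's share called in these fits is not given here, so the counts cannot be set against it. In all 9 fits that left out 1 library, 10 of the 25 stayed called, namely *H2afy*, *Med4*, *Med25*, *Med30*, *Hnrnpc*, *Hnrnpm*, *Rbm39*, *Snrpb*, *Srsf5* and *Srsf7*. The calls also rest on the scaling of the libraries, as described further on. When each library was centred on its own median level, 3 members rose and 4 fell with age, against 11.3% and 31.2% of the table.

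**Figure D1:**
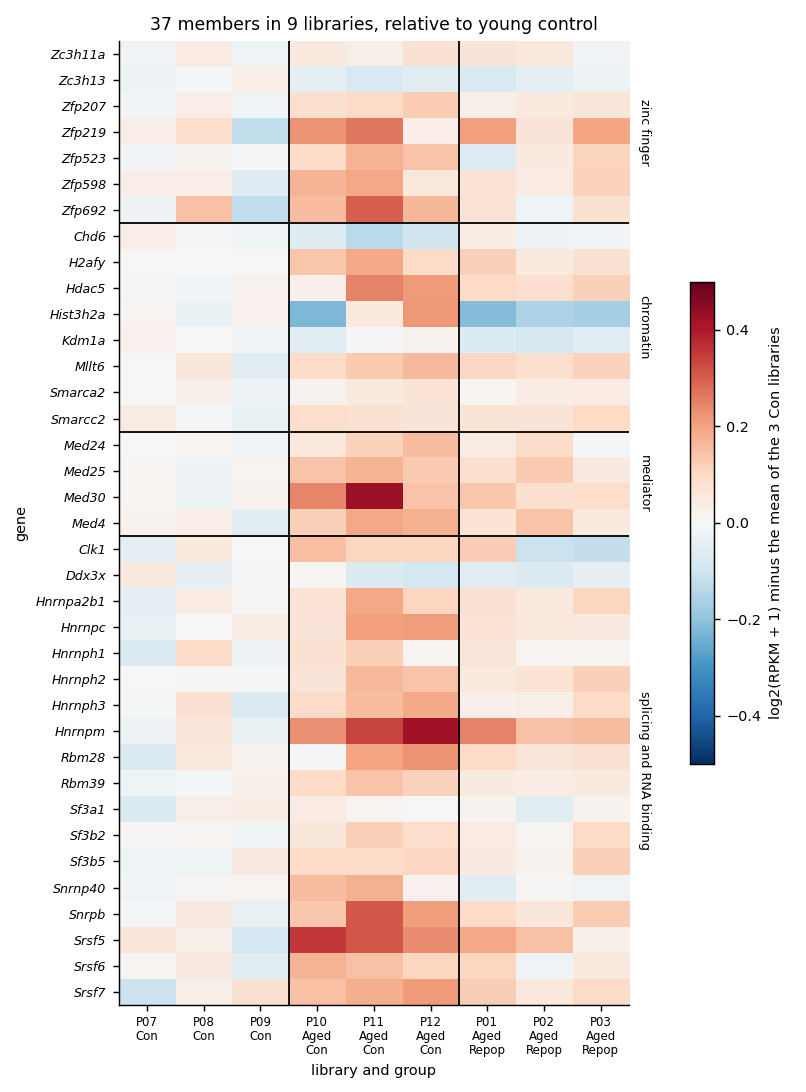
Heat map of log2(RPKM + 1) for the 37 members (rows, grouped by role) in the 9 libraries (columns), each value minus the mean of the 3 Con libraries, with red above and blue below. The 3 Aged Con columns are the reddest, the Aged Repop columns are paler, and *Chd6* and *Zc3h13* are blue in all 3 Aged Con columns.

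The highest of the 9 values was in an Aged Con library for 31 members, namely P11 for 16, P12 for 11 and P10 for 4. The lowest of the 9 was in a Con library for 29 members, 18 of them in P09. The table's shares for such counts are not given here. Over the members, the median log2 difference from the Con mean was 0.09 in P10, 0.15 in P11 and 0.11 in P12, and 0.07, 0.05 and 0.06 in P01, P02 and P03. The same medians over the table were 0.07, 0.11 and 0.09, and 0.04, 0.02 and 0.05, so the whole table moved with the members.

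Promoter sequence was read for members called with age that have a window free of annotated exons: the 3 with the largest called rises among those (*Zfp692*, *Hdac5* and *Srsf6*) and *Chd6*, the 1 member that fell. These are not the most stable calls: in the 9 fits without 1 library, *Zfp692*, *Hdac5*, *Srsf6* and *Chd6* stayed called in 6, 4, 8 and 4. RefSeq windows on GRCm38.p6 (mm10) were matched by symbol for 29 of the 37 members. Each sequence below is the 250 bases before the RefSeq start, on the gene's strand from 5′ to 3′, for *Zfp692* at chr11:58306819-58307068 (plus strand), *Hdac5* at chr11:102230173-102230422 (minus strand), *Srsf6* at chr2:162931258-162931507 (plus strand) and *Chd6* at chr2:161109087-161109336 (minus strand). Capitals mark matches, on either strand, to the GC box GGGCGG, the CCAAT box, the TATA box TATAAA and the ETS motif CCGGAAG.
Zfp692: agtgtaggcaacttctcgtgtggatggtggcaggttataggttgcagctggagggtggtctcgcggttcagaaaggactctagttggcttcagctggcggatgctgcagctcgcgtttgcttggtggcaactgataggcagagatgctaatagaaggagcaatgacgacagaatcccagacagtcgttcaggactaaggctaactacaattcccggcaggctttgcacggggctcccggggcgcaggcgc
Hdac5: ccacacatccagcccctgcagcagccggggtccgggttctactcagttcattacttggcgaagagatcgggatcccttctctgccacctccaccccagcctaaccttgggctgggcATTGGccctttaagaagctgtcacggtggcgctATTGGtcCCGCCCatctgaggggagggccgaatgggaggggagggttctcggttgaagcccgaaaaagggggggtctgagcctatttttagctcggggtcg
Srsf6: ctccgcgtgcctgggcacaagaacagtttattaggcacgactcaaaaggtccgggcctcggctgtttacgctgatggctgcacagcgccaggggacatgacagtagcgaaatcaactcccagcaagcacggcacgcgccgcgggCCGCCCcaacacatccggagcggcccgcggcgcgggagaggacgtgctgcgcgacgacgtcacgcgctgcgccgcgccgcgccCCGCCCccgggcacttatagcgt
Chd6: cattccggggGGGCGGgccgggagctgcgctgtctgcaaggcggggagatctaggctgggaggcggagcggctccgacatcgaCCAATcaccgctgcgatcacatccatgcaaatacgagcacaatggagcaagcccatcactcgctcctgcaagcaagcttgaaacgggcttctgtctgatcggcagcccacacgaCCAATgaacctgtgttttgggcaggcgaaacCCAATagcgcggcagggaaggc

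*Zfp692* held 0 of these motifs, *Srsf6* 2 GC boxes and no other, *Hdac5* 1 GC box and 2 CCAAT boxes, and *Chd6* 1 GC box and 3 CCAAT boxes, so no motif was common to the 3 that rose. Among the 29 members with such a sequence of 250 bases, 58.6% held a GC box, 41.4% a CCAAT box, 6.90% a TATA box and 24.1% an ETS motif. The shares over the other 528 genes of the table with windows were 64.4%, 44.1%, 9.47% and 16.7%, and over all 27025 mouse genes with windows 35.4%, 37.5%, 14.3% and 7.83%. The median GC content of the 250 bases was 59.2% in the members' windows, 60.4% in those of the rest of the table and 52.4% in all windows. Of the other motifs searched on both strands, NRF1, CRE (TGACGTCA), the E-box (CACGTG) and YY1 (AAGATGGCG), the members' shares were 10.3%, 3.45%, 6.90% and 3.45%, those of the other genes with windows in the table were 9.09%, 2.84%, 10.2% and 1.52%, and those of all genes were 4.23%, 1.77%, 6.86% and 0.711%. No motif contains another, and a match is a run of letters and not a bound site.

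Among the 7 zinc finger genes, the largest rise was that of *Zfp692*, a zinc finger gene at chr11:58307069-58314627. Its level was 13.3, 15.1 and 12.4 RPKM in the 3 Con libraries, 15.2, 16.9 and 15.4 RPKM in Aged Con and 14.3, 13.4 and 14.4 RPKM in Aged Repop. The aged control libraries lay above the young ones, by a narrow margin between P10 and P08. The means were 13.6 ± 1.40, 15.9 ± 0.942 and 14.0 ± 0.561 RPKM (SD, n = 3), and the age difference was 0.21 ± 0.067 on the log2 scale (SE, limma adjusted p = 0.025). *Zfp598*, which marks collided ribosomes with ubiquitin, rose from 12.6 ± 0.512 to 14.0 ± 0.787 RPKM (SD, n = 3, adjusted p = 0.026). *Zfp523* rose from 19.5 ± 0.236 to 21.5 ± 0.648 RPKM (adjusted p = 0.028), and *Zfp207*, a spindle protein, rose from 27.5 ± 0.567 to 29.6 ± 0.510 RPKM (adjusted p = 0.020). The other 3 did not pass the test. *Zfp219*, a transcription factor gene, was at 10.95, 11.4 and 9.73 RPKM in Con, at 12.6, 13.0 and 10.9 RPKM in Aged Con and at 12.4, 11.2 and 12.4 RPKM in Aged Repop. P12 lay within the young range, and the log2 difference was 0.17 ± 0.073 (SE, adjusted p = 0.060). *Zc3h13*, whose protein belongs to the complex that methylates adenosines in RNA, lay lower in all 3 Aged Con libraries, with a log2 difference of -0.06 (adjusted p = 0.117). *Zc3h11a*, an mRNA export factor, differed by 0.05 (adjusted p = 0.204), and 98.7% of the 50-base stretches of its longest transcript recur in another gene model that overlaps it, so its level cannot be assigned to 1 model.

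The 8 chromatin genes were the most mixed group. *Chd6*, an ATP-dependent chromatin remodeler at chr2:160946978-161109075, was at 12.9, 12.5 and 12.4 RPKM in Con, at 12.01, 11.35 and 11.67 RPKM in Aged Con and at 12.9, 12.3 and 12.4 RPKM in Aged Repop. All 3 aged control libraries were lower than every other library of this gene. Its mean fell by 0.10 ± 0.034 on the log2 scale with age (SE, limma adjusted p = 0.030), from 12.6 ± 0.267 to 11.7 ± 0.332 RPKM (SD, n = 3), and it was 12.6 ± 0.328 RPKM in Aged Repop. *H2afy*, which encodes the histone variant macroH2A1, was at 28.0, 27.9 and 27.9 RPKM in Con, at 30.8, 32.0 and 29.9 RPKM in Aged Con and at 30.4, 28.9 and 29.5 RPKM in Aged Repop. The young libraries were almost the same and all 6 aged libraries were above them, and the rise with age was 0.14 (adjusted p = 0.011). *Hdac5*, a class IIa histone deacetylase that shuttles between nucleus and cytoplasm, was at 30.2, 30.1 and 30.8 RPKM in Con, at 31.0, 36.2 and 35.4 RPKM in Aged Con and at 32.7, 32.3 and 33.1 RPKM in Aged Repop. P10 lay just above the young libraries and apart from P11 and P12, and the rise was 0.16 ± 0.052 (SE, adjusted p = 0.024). *Mllt6* rose from 22.2 ± 0.920 to 24.3 ± 0.628 RPKM (SD, n = 3, adjusted p = 0.018).

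The remaining 4 chromatin genes did not pass the test with age. *Smarca2* and *Smarcc2*, an ATPase and a core subunit of BAF remodeling complexes, had log2 differences of 0.05 (adjusted p = 0.194) and 0.08 (adjusted p = 0.054). *Kdm1a*, the histone demethylase LSD1, was at 16.5, 16.2 and 16.0 RPKM in Con, at 15.7, 16.2 and 16.4 RPKM in Aged Con and at 15.4, 15.3 and 15.6 RPKM in Aged Repop. The young and aged controls overlapped (log2 difference -0.01, adjusted p = 0.675), while the repopulated libraries were the lowest of the 9. *Hist3h2a*, a histone H2A gene, was at 22.3, 21.6 and 22.4 RPKM in Con, at 18.7, 22.8 and 25.8 RPKM in Aged Con and at 18.9, 19.7 and 19.6 RPKM in Aged Repop. The 3 aged controls spanned the whole range of this gene, and its age difference was 0.01 ± 0.089 (SE, adjusted p = 0.900). For *Hist3h2a*, 31.5% of the 50-base stretches of the longest transcript recur in other genes, most of them in *Trim17*, which overlaps it on the same strand.

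All 4 genes of Mediator subunits rose with age in the values as deposited, where 46.3% of the table rose. Under the 4 other scalings described below, only *Med30* stayed called in any. *Med24* stayed called in 4 of the 9 fits without 1 library. *Med30*, at chr15:52712408-52730564, was at 11.90, 11.60 and 11.97 RPKM in Con, at 14.2, 16.3 and 13.1 RPKM in Aged Con and at 13.1, 12.6 and 12.6 RPKM in Aged Repop. P11 stood above the other aged controls, and every aged library exceeded every young one. The rise was 0.27 ± 0.062 on the log2 scale (SE, limma adjusted p = 0.0096), or 22.9% of the Con mean. *Med25* was at 15.3, 14.9 and 15.4 RPKM in Con, at 16.9, 17.2 and 16.7 RPKM in Aged Con and at 16.2, 16.7 and 15.7 RPKM in Aged Repop. Here the 3 groups formed 3 steps without overlap, although P02 and P12 nearly met, and the rise with age was 0.15 ± 0.033 (SE, adjusted p = 0.0096). *Med4* was at 12.3, 12.4 and 11.7 RPKM in Con, at 13.3, 14.0 and 13.8 RPKM in Aged Con and at 12.8, 13.5 and 12.6 RPKM in Aged Repop. It rose by 0.16 (adjusted p = 0.010), with 11.2% of its 50-base stretches shared with other genes. *Med24* rose from 21.4 ± 0.251 to 23.1 ± 0.850 RPKM (adjusted p = 0.033). *Med30* and *Med4* have short transcripts, and the trend with length is given below.

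Of the 18 splicing and RNA-binding genes, 13 rose and 0 fell with age, where 46.3% of the table rose and 16.5% fell. The largest rise of any member was that of *Hnrnpm*, a splicing regulator at chr17:33646233-33686860. Its level was 42.0, 44.7 and 41.8 RPKM in Con, 50.3, 54.4 and 57.6 RPKM in Aged Con and 51.1, 47.6 and 47.9 RPKM in Aged Repop. Every aged library was above every young one, and P01 lay within the range of the aged controls. The age difference was 0.33 ± 0.053 on the log2 scale (SE, limma adjusted p = 0.0060), or 26.3% of the Con mean. Of its 50-base stretches, 28.8% recur in *March2*, whose exons overlap it on the same strand, and how the authors' counting treated shared reads is not given in the sources used here.

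All 3 genes of SR proteins in the table rose with age, where 46.3% of the table rose. *Srsf5*, *Srsf6* and *Srsf7* were not called after the length correction described below. *Srsf5*, at chr12:80945504-80950507, was at 98.7, 96.5 and 88.8 RPKM in Con, at 121.1, 117.5 and 111.5 RPKM in Aged Con and at 108.2, 104.9 and 96.3 RPKM in Aged Repop. The aged controls were the 3 highest of 9, and Aged Repop overlapped Con through P03. The age difference was 0.30 ± 0.056 (SE, limma adjusted p = 0.0071), with 27.9% of its 50-base stretches found also in *Gm12966*. *Srsf7* was at 33.8, 37.2 and 38.5 RPKM in Con, at 40.5, 41.5 and 42.5 RPKM in Aged Con and at 39.8, 37.9 and 39.1 RPKM in Aged Repop, and rose by 0.18 (adjusted p = 0.013). *Srsf6* was at 33.7, 34.6 and 32.1 RPKM in Con, at 37.7, 37.2 and 36.1 RPKM in Aged Con and at 36.1, 33.0 and 34.7 RPKM in Aged Repop, and rose by 0.14 (adjusted p = 0.019). *Clk1*, whose kinase phosphorylates SR proteins, was at 42.4, 45.4 and 43.8 RPKM in Con, at 48.7, 47.4 and 47.3 RPKM in Aged Con and at 47.8, 40.6 and 40.3 RPKM in Aged Repop. The aged controls exceeded the young ones without passing the test (log2 difference 0.12 ± 0.060, SE, adjusted p = 0.099), and the repopulated library P01 stood well above P02 and P03.

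Genes for parts of the spliceosome rose by varied amounts. *Snrpb*, an Sm protein shared by the small nuclear ribonucleoproteins, was at 36.99, 38.43 and 36.23 RPKM in Con, at 40.9, 46.3 and 43.1 RPKM in Aged Con and at 39.8, 38.7 and 40.7 RPKM in Aged Repop. The aged controls were the highest 3 and the repopulated libraries fell between the groups (age difference 0.22 ± 0.047, SE, limma adjusted p = 0.0094). *Snrnp40* rose from 9.94 ± 0.118 to 10.9 ± 0.682 RPKM (SD, n = 3, adjusted p = 0.036). Of the 3 genes of splicing factor 3, *Sf3b5* and *Sf3b2* rose by 0.10 and 0.09 (adjusted p = 0.041 and 0.048), and *Sf3a1* differed by 0.02 (adjusted p = 0.669).

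Of the 6 *Hnrn* genes, *Hnrnph1* alone did not pass the test (0.07 ± 0.047, SE, limma adjusted p = 0.208), where 46.3% of the table rose. *Hnrnpc* was at 44.9, 46.1 and 47.3 RPKM in Con, at 48.3, 53.3 and 53.4 RPKM in Aged Con and at 48.3, 47.8 and 47.6 RPKM in Aged Repop, and rose by 0.16 (limma adjusted p = 0.014). P10 lay beside the repopulated libraries and below P11 and P12. *Hnrnph3* was at 25.4, 26.9 and 24.3 RPKM in Con, at 27.3, 28.5 and 29.3 RPKM in Aged Con and at 25.95, 26.03 and 27.3 RPKM in Aged Repop, and rose by 0.15 (adjusted p = 0.020). *Hnrnpa2b1* was at 127.6, 135.7 and 132.6 RPKM in Con, at 138.5, 150.9 and 142.2 RPKM in Aged Con and at 139.1, 136.7 and 142.3 RPKM in Aged Repop, and rose by 0.12 (adjusted p = 0.026). For *Hnrnpa2b1* P11 was the highest library, and the repopulated libraries overlapped the aged controls. *Hnrnph2* rose by 0.12 (adjusted p = 0.017). Stretches shared with other genes made up 12.3% of *Hnrnpc* and 18.2% of *Hnrnph2*, and exons of *Rufy2* overlap *Hnrnph3* on the opposite strand. *Rbm39*, a splicing cofactor, rose from 63.5 ± 1.02 to 69.1 ± 1.08 RPKM (SD, n = 3, adjusted p = 0.011). *Rbm28*, which is needed for making ribosomes, had a log2 difference of 0.14 (adjusted p = 0.062), and *Ddx3x*, an RNA helicase of translation encoded on the X chromosome, had one of -0.05 (adjusted p = 0.234).

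**Figure D2:**
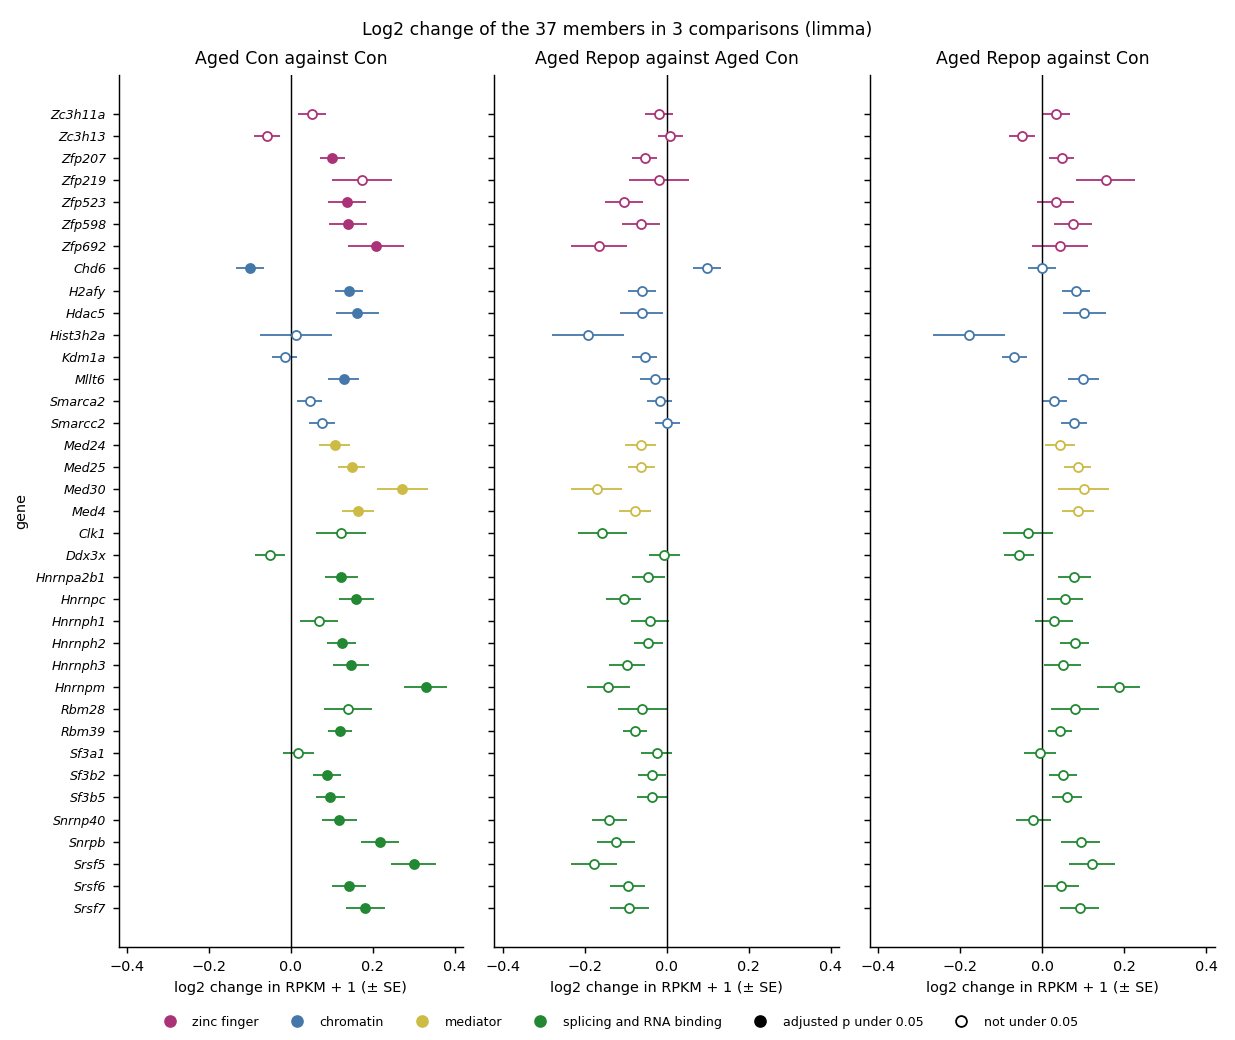
Log2 differences in RPKM + 1 from limma (horizontal axis, bars are SE) for the 37 members (rows) in Aged Con against Con, Aged Repop against Aged Con and Aged Repop against Con, coloured by role and filled where the adjusted p is under 0.05. The left panel has 25 filled points, 24 of them right of 0, and the other panels have 0.

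Repopulation of the aged brain was followed by levels that were mostly lower than in aged controls, but no member passed the test. With limma, 0 of the 37 members were called, where 8.71% of the table was, and 12 members had an unadjusted p under 0.05. The differences were negative for 34 members and positive for 3, with a median of -0.06 over the members and -0.05 over the table. After centring each library on its median the split was 21 negative and 16 positive, with a median of -0.0060, so the direction rests on the scaling. The split of signs over the table is not given here. The medians by role in the values as deposited were -0.05 for zinc finger, -0.04 for chromatin, -0.07 for Mediator and -0.08 for splicing and RNA-binding genes. For 11 members all 3 Aged Repop libraries lay below all 3 Aged Con libraries, where the table's share was 22.2%, and for 1 member (*Chd6*) they lay above, where it was 15.2%. Without the aged control P10, 5 members were called lower (*Hdac5*, *Hist3h2a*, *Hnrnpc*, *Hnrnpm* and *Snrpb*), and without the repopulated library P01, 1 was (*Clk1*). These counts are not read as a trait of the members, since the table's share called in the same fits is not given here. Aged Con enters both this comparison and that with Con, so a low or high aged control mean moves the 2 differences in opposite directions.

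The smallest adjusted p belonged to *Snrnp40* (0.064), whose 3 repopulated libraries at 9.54, 9.98 and 9.80 RPKM lay below the aged controls at 11.2, 11.4 and 10.1 RPKM. Its log2 difference was -0.14 ± 0.043 (SE), and its Con libraries were at 9.80, 9.97 and 10.03 RPKM. *Srsf5* differed by -0.18 ± 0.056 (SE, limma adjusted p = 0.067), the largest difference among the splicing genes, and *Med30* by -0.17 ± 0.062 (SE, adjusted p = 0.090). *Zfp692* differed by -0.16 ± 0.067 (SE, adjusted p = 0.110). *Hist3h2a* had the largest difference of any member, -0.19 ± 0.089 (SE, adjusted p = 0.137). Only P11 and P12 lay above the repopulated libraries, and P10 lay just below them. *Chd6* differed by 0.10 ± 0.034 (SE, adjusted p = 0.085), the mirror of its age difference. *Hnrnpm* differed by -0.14 ± 0.053 (SE, adjusted p = 0.092).

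Against young controls, no member passed the test in the repopulated aged brain either. Limma called 0 of the 37 members in Aged Repop against Con, where 4.93% of the table was called, and 5 members had an unadjusted p under 0.05. The differences were positive for 29 members and negative for 8, with a median of 0.05 over the members and 0.04 over the table. After centring 18 were positive and 19 negative, with a median of -0.0019. The table's split of signs is not given here either. The 3 repopulated libraries lay above all Con libraries for 15 members and below them for 4, against 31.5% and 11.2% of the table. *Hnrnpm* had the smallest adjusted p (0.064) and a difference of 0.19 ± 0.053 (SE). Without P10, which is in neither group but shares in the estimate of spread, 2 members were called, *Hnrnpm* higher and *Hist3h2a* lower. For that fit the table's share called is not given here. *Hist3h2a* differed by -0.18 ± 0.089 (SE, adjusted p = 0.196), *Zfp219* by 0.15 ± 0.073 (SE, adjusted p = 0.181), *Med30* by 0.10 ± 0.062 (SE, adjusted p = 0.277) and *Hdac5* by 0.10 ± 0.052 (SE, adjusted p = 0.204).

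**Figure D3:**
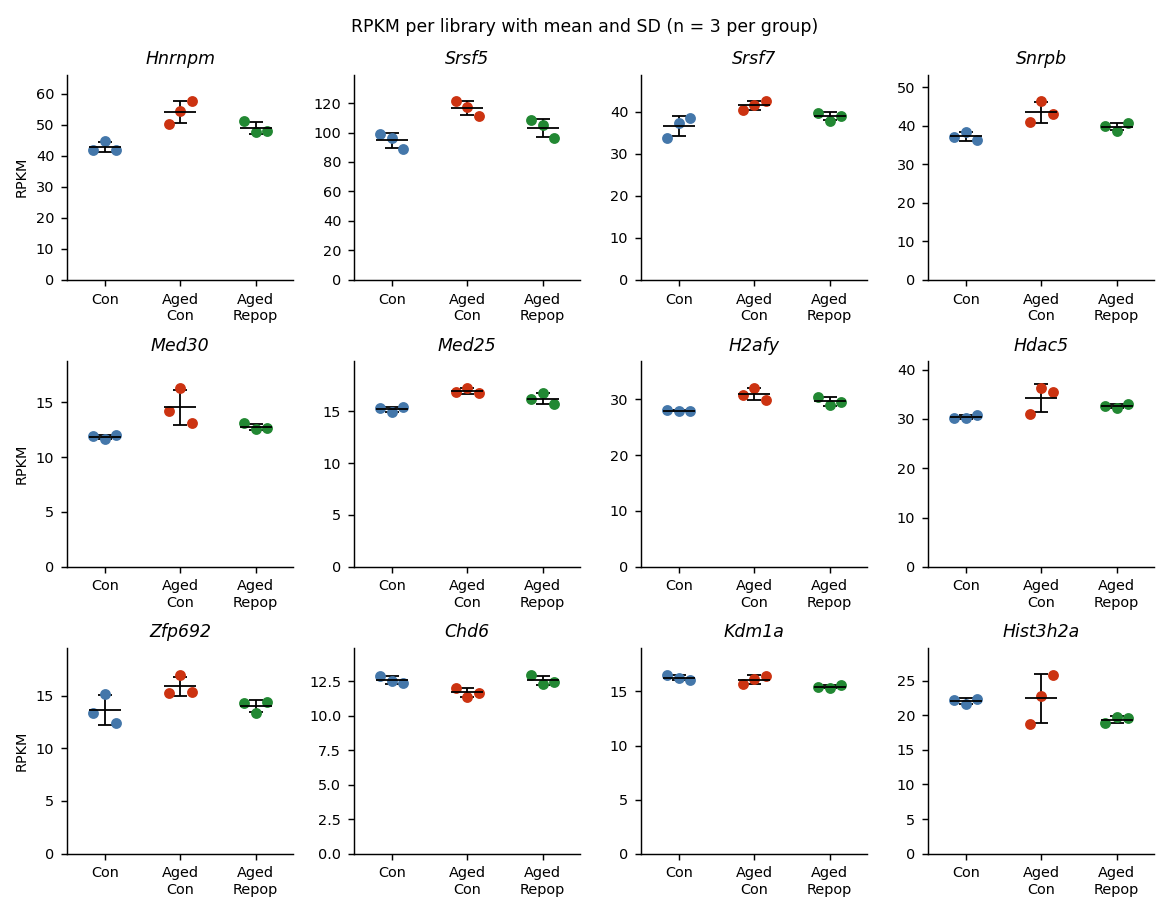
RPKM in each library (points) with the mean and SD (lines, n = 3 per group) for 12 members, each panel with its own vertical axis from 0. *Hnrnpm*, *Srsf5*, *Snrpb* and *Med25* step up from Con to Aged Con with Aged Repop in between, *Chd6* dips in Aged Con, and *Hist3h2a* spreads from 18.7 to 25.8 RPKM in Aged Con.

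Transcript length went with the differences, among the members as in the table. The members' longest transcripts ran from 1007 nucleotides for *Med30* to 10515 nucleotides for *Chd6*, with a median of 3028 against 3178.5 over the table. Spearman's rho between length and the age difference was -0.50 across the 37 members and -0.66 across the 686 genes with a known length, given as a description since the genes share the same libraries. The 8 members under 2000 nucleotides had a median age difference of 0.19, with 7 rising. The 19 members from 2000 up to 4000 nucleotides had one of 0.14, with 15 rising. The 10 members of 4000 nucleotides and over had one of 0.05, with 2 rising and 1 (*Chd6*) falling. The table's medians in these bins were 0.19, 0.11 and -0.06, with 144 of 191, 134 of 244 and 39 of 251 genes rising and 3, 22 and 89 falling. In Aged Repop against Aged Con the members' medians were -0.15, -0.06 and -0.02 and rho was 0.73, against medians of -0.11, -0.06 and 0.06 and a rho of 0.65 in the table. What the length trend comes from was not tested.

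**Figure D4:**
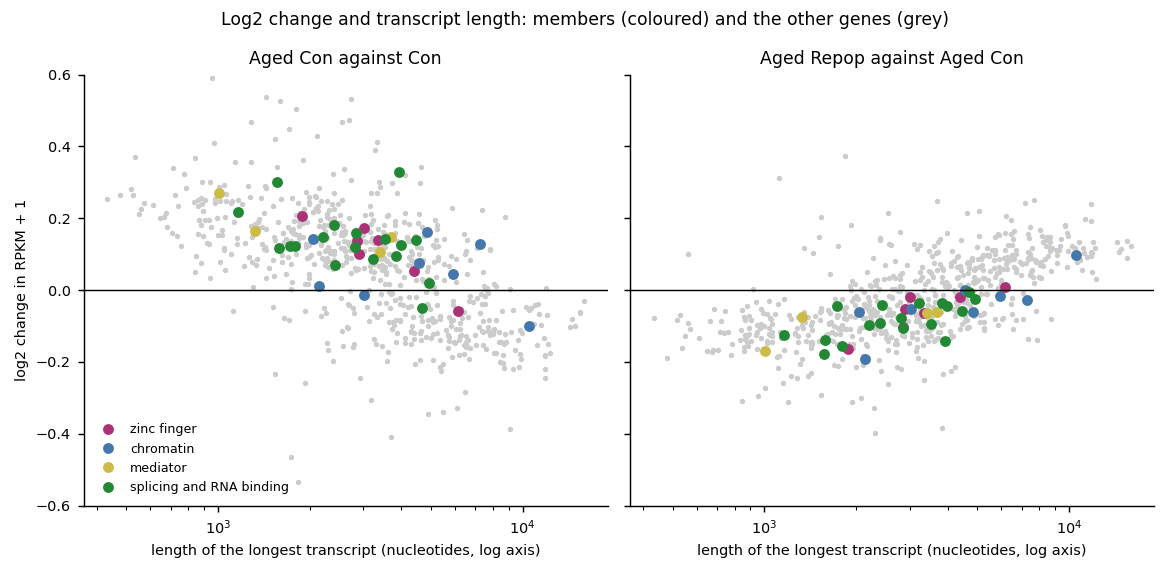
Log2 difference in RPKM + 1 (vertical axis) against the length of the longest transcript (log axis) for Aged Con against Con and Aged Repop against Aged Con, with members in colour and the other genes in grey. Members follow the grey cloud, which falls with length in the left panel and climbs in the right one, and 16 and 5 genes of the table lie beyond the vertical axis.

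The number and direction of the age calls changed with the scaling of the libraries. Centring each library on its median level moved the age difference of a gene by a median of -0.11. After centring, *Hnrnpm*, *Srsf5* and *Med30* rose, while *Chd6*, *Ddx3x*, *Kdm1a* and *Zc3h13* fell, against 11.3% of the table rising and 31.2% falling. After quantile normalization, *Hnrnpm*, *Med30* and *Snrpb* rose, and the 4 that fell after centring fell together with *Hnrnph1*, against 12.8% and 27.4% of the table. With a correction of each library for transcript length, *Hnrnpm* and *Mllt6* rose and *Kdm1a* fell, against 9.18% and 13.8%. With a correction for GC content instead, which was added after seeing the data, 8 members rose and 3 fell, against 15.7% and 26.5%. The length and GC corrections also brought each library to about the same mean level, much as centring does. They moved the age difference of a gene by medians of -0.09 and -0.08, so these counts do not isolate an effect of length or GC.

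*Hnrnpm* was the 1 member that rose with age in each of these 4 scalings and in the values as deposited, and it also stayed called in each of the 9 fits that left out 1 library. Its log2 difference was 0.22 after centring, 0.25 after quantile normalization, 0.28 after length correction and 0.26 after GC correction. *Kdm1a* went the other way: not called in the values as deposited, it was lower with age in all 4 scalings, by -0.12, -0.08, -0.12 and -0.11 (limma adjusted p = 0.011, 0.028, 0.021 and 0.019 for centring, quantile, length and GC). Against Con *Kdm1a* was also the 1 member called in Aged Repop under each of the 4, by -0.12, -0.11, -0.11 and -0.12 (limma adjusted p = 0.042, 0.035, 0.045 and 0.040), against shares of falling genes of 5.52%, 3.63%, 6.56% and 4.23% in the table. The 4 scalings moved age differences the same way, by medians of -0.11, -0.08, -0.09 and -0.08. Their agreement on *Kdm1a* is therefore not 4 separate results. Each also takes as its reference a table of genes already called, of which more rose than fell with age. In Aged Repop against Aged Con, *Chd6* was called higher after centring, against 16.1% of the table, and after quantile normalization, against 7.55%, and in neither of the other 2 scalings.

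**Figure D5:**
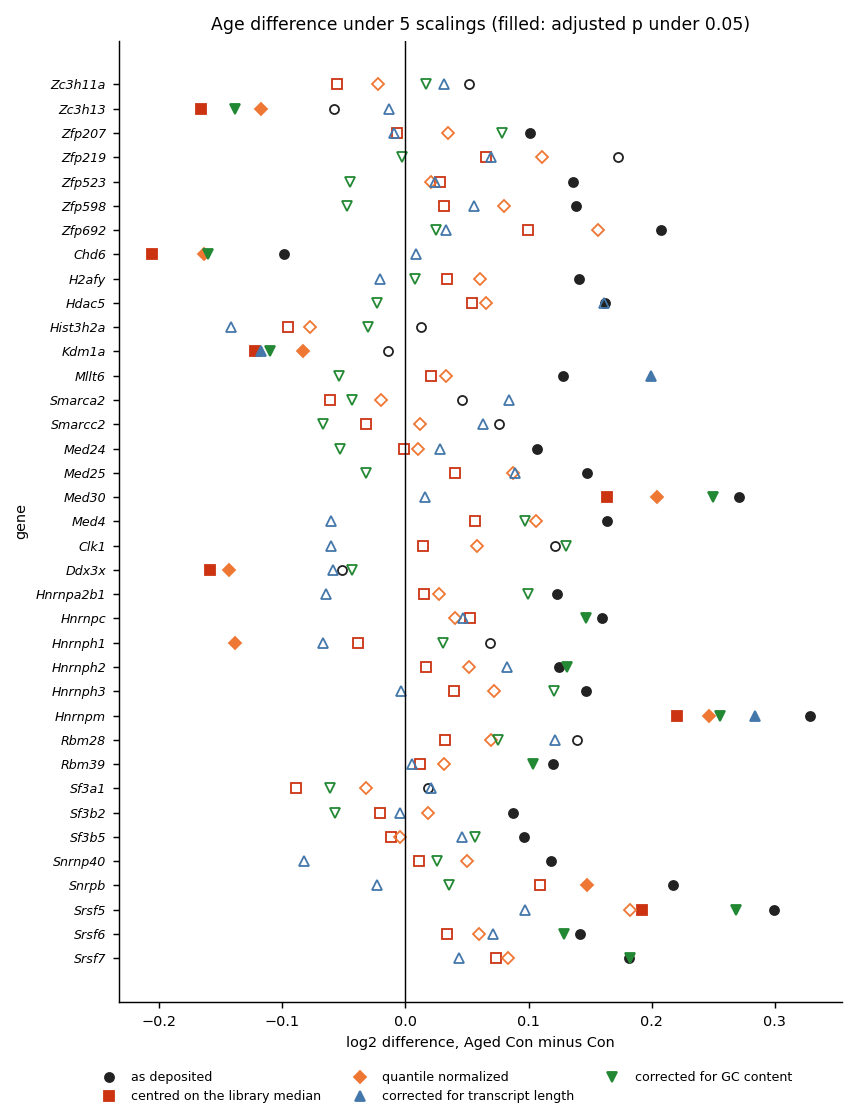
Log2 difference of Aged Con from Con (horizontal axis) for each member (rows) in the values as deposited and under 4 other scalings, filled where the adjusted p is under 0.05. Most black circles lie right of 0 and most other symbols lie to their left, *Hnrnpm* is filled and right of 0 under all 5, and *Kdm1a* is filled and left of 0 under the 4 other scalings.

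Genes of the same roles with other symbols were described from lists of named genes, which are not complete. Chromatin genes such as *Kansl3*, *Bmi1* and *Srcap* are in the table but were not listed. Of the 94 other chromatin genes listed, 10 were in the table, of which 6 rose and 0 fell with age, with a median log2 difference of 0.12. With repopulation 1 of these 10 was called, lower, and their median was -0.05. Of 90 other splicing and RNA-binding genes, 23 were in the table, of which 14 rose and 1 fell with age, with a median of 0.13, and 2 were called lower with repopulation, with a median of -0.07. Among the members themselves, 24 of 37 rose with age, and 46.3% of all genes tested did, while 8.71% of all genes tested were called with repopulation.

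The cell type markers in the table are there because the authors' model had called them. That they differ between libraries was thus set by this choice, and says nothing about the markers that the table lacks. Their part in the members' differences was not tested. Of 13 microglial markers, 8 were in the table, and their summed level was 155.0 to 160.7 RPKM in Con, 229.5 to 272.5 RPKM in Aged Con and 219.2 to 317.6 RPKM in Aged Repop, with 7 rising with age and 0 called with repopulation. Of 14 neuronal markers, 3 were in the table, at 282.0 to 297.6, 293.3 to 314.0 and 289.5 to 294.2 RPKM, and these ranges overlapped. The astrocyte marker *Glul* (1 of 10 in the table) was at 401.1 to 417.0, 445.8 to 482.3 and 440.8 to 480.9 RPKM, and the oligodendrocyte marker *Opalin* (1 of 10) at 15.5 to 19.0, 10.9 to 13.2 and 12.1 to 19.2 RPKM. Of 10 endothelial markers, 3 were in the table, at 55.9 to 56.1, 46.6 to 53.7 and 41.9 to 51.5 RPKM. Neuronal, glial and endothelial markers were thus all present in libraries labelled as brain tissue.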

How the data were processed

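RNA was sequenced from half-brain homogenates. Per the submitters' processing notes and the study's methods, the authors called bases with CASAVA 1.8.2, mapped reads with ELAND to mm10, expressed each gene as RPKM, dropped low genes and fitted a linear model. The deposited RPKM table holds only the 689 genes that this model called, so adjusted p-values here are too small. How reads were counted, and how shared reads were treated, is not given in the sources used here. The authors' F, t and p columns (5) were not used, and 0 value columns were unmapped. Read depth is unknown, so no counting error is given and precision rests on the spread between 3 libraries.

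From the deposited RPKM, log2(RPKM + 1) was fitted with limma 3.58.1 (R 4.3.3), all 9 libraries in 1 fit, with Benjamini-Hochberg adjustment over the table at 0.05. Log2 differences understate changes of low genes. Labels share no replicate number between groups, so no pairing was used. Each mouse gave 1 library, so p-values set a difference against the spread between mice within groups. That spread was pooled over the 3 groups and moderated over the genes of the table. The fit was checked on simulated data with independent noise for each gene. The simulation had no prior choice of called genes, no shift between libraries and no length trend, so it cannot speak to these. Transcript lengths (longest basic transcript), exon overlaps and gene coordinates came from GENCODE M21 on GRCm38, where 686 of 689 symbols and all 37 members matched, and promoters from RefSeq. Tables and plots used Python 3.11.15, pandas 2.3.3 and matplotlib 3.10.9.

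The members, lists, tests and alternatives were chosen with earlier results of these data known. Genes given with the value of each library were the 12 called members with the largest age difference and no overlap between groups, the highest and lowest member by mean level, and in each role the member with the largest difference in each comparison. *Chd6*, *H2afy*, *Kdm1a* and *Clk1* were added after their values were seen, and the remaining members are named to account for each. The alternatives were a pseudocount of 0.1 or 10, untransformed RPKM, centring on the library median, quantile normalization, loess correction (span 0.75) for length, a mean of at least 20 RPKM, only the groups compared, no variance moderation, a variance trend, 9 fits without 1 library each and, added after seeing the data, loess correction for GC content and Holm adjustment.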

Additional observations from a re-analysis of the deposited data

How the results depend on the processing

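The count of members called with age was 25 in the values as deposited. It was 7 after centring on the library median and 8 after quantile normalization, where more members fell than rose, 3 after length correction, and, in alternatives added after seeing the data, 11 after GC correction and 0 with Holm adjustment (limma, 28 members with an unadjusted p under 0.05). Leaving out 1 library gave 11 to 25, and the table's share called in such fits is not given here. With repopulation the count was 0, and 1 for untransformed RPKM (*Rbm39*, lower), centring and quantile normalization (*Chd6*, higher), and 0 to 5 with 1 library left out. Against Con it was 0, and 1 after each of the 4 scalings (*Kdm1a*, lower), 2 with only the groups compared (*Hnrnpm* higher, *Hist3h2a* lower), and 0 to 2 with 1 library left out. Of the 25 age calls, 14 were kept in none of the 4 scalings and 1 (*Hnrnpm*) in each of them. The table's rising share went from 46.3% to 11.3% (centring), 12.8% (quantile), 9.18% (length) and 15.7% (GC). Its falling share went from 16.5% to 31.2%, 27.4%, 13.8% and 26.5%. How many of the table's own calls were kept is not given here, so the counts kept are not read as a trait of the members. Each of the 4 scalings, length and GC correction included, also took out differences in overall level between the libraries. The pseudocount, the variance trend, no variance moderation and the filter at a mean of 20 RPKM left each count within 1.5 times.

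Among members called in either of the fits compared, log2 age differences that changed sign were -0.0065, -0.0011, -0.020 and -0.012 for *Zfp207*, *Med24*, *Sf3b2* and *Sf3b5* after centring, and -0.0048 for *Sf3b5* and -0.14 for *Hnrnph1* (adjusted p = 0.019) after quantile normalization. After length correction they were -0.0089 (*Zfp207*), 0.0086 (*Chd6*), -0.021 (*H2afy*), -0.061 (*Med4*), -0.065 (*Hnrnpa2b1*), -0.0034 (*Hnrnph3*), -0.0043 (*Sf3b2*), -0.082 (*Snrnp40*) and -0.023 (*Snrpb*). After GC correction they were -0.045 (*Zfp523*), -0.048 (*Zfp598*), -0.023 (*Hdac5*), -0.054 (*Mllt6*), -0.053 (*Med24*), -0.032 (*Med25*) and -0.057 (*Sf3b2*). The cause was not tested. No paired analysis was possible because the labels share no replicate number between groups. Depth is unknown, so differences within the spread of 3 libraries cannot be resolved.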
